A study of Saccharomyces cerevisiae with 4 samples.

Results

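The PIR proteins (proteins with internal repeats) are a family of secreted yeast glycoproteins of the cell wall. The family has 5 genes, PIR1 (YKL164C), HSP150 (YJL159W, also PIR2), PIR3 (YKL163W), CIS3 (YJL158C, also PIR4) and PIR5 (YJL160C). Members were found by gene symbol in the platform's probe annotation, in which PIR1, PIR3 and CIS3 have 2 spots each. That makes 3 of the 353 named genes and 6 of the 724 spots with a single gene name. HSP150 and PIR5 have 0 spots among those with a single gene name and were not analysed here.

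The RNA came from Saccharomyces cerevisiae BY4741 with a deletion of HOG1, the MAP kinase of the osmotic stress pathway, grown in YEPD (rich medium) at 24 °C. Cells that had received 30 µg/ml of Congo Red, a dye that binds wall polysaccharides, were collected after 4 h, and so were cells from the untreated part of the divided culture. Each of 4 dual-channel arrays of a cell wall chip held treated and untreated RNA. Channel 2 held the treated RNA on arrays 1 and 3, and channel 1 held it on arrays 2 and 4. All groups carry the HOG1 deletion, and no strain with HOG1 was analysed here. The number of arrays limits the precision. The labels do not say that the arrays stand for separate cultures, so p-values cover the spread among these arrays alone, and that spread may be technical.

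The values are log2 ratios, and the sources used here do not give their numerator. They were read as Congo Red over untreated, a direction that is only likely. The basis is that genes known to answer to wall stress are then higher, PIR3 among them, so the sign of a PIR ratio is no independent finding. Values of arrays 2 and 4 were kept as deposited, and their turning is not settled by the labels. As deposited, ratios of 328 genes correlated positively between arrays of opposite channel order (Pearson r from 0.31 to 0.51). Between arrays of the same channel order r was 0.70 and 0.77. Turning arrays 2 and 4 would make the correlations between opposite channel orders negative. The probe of the deleted gene HOG1 gave log2 ratios between -1.73 and 1.43 on the 4 arrays and did not pass the test (limma adjusted p = 0.894). Its position relative to the deletion is not given, so it checks no label.

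PIR proteins enter the wall through a covalent link to β-1,3-glucan that does not need a GPI anchor. The link is sensitive to mild alkali and forms at glutamine residues of the internal repeats. The precursors are cut by the Golgi protease Kex2 and carry O-linked mannose chains. Transcription of PIR genes is known to answer to the cell wall integrity pathway, in which the MAP kinase Slt2 activates the transcription factor Rlm1, and PIR1 and PIR3 transcripts are also known to vary over the cell cycle, with a peak near the M/G1 boundary. Cis3 differs from its relatives in carrying a single repeat. In the gene table PIR1 and PIR3 are immediate neighbours on chromosome XI. Their systematic names place PIR3 on the Watson strand and PIR1 on the Crick strand. CIS3, HSP150 and PIR5 are likewise consecutive genes of chromosome X.

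PIR3 was the PIR gene with the largest ratio and the only one of the 3 measured that passed the test. Its log2 ratios were 0.88, 1.61, 1.22 and 1.725 on arrays 1 to 4, which correspond to ratios between 1.84 and 3.31. All 4 arrays lay well above 0. The mean log2 ratio was 1.36 ± 0.39 (SD, n = 4), or 2.56-fold, with a limma 95% interval of 0.90 to 1.81 and a limma adjusted p of 0.00753. By mean ratio PIR3 ranked 18 from the top among the 348 tested genes, a place that rests on the direction and turning taken here. Its duplicate spots lay close together. The spots had log2 ratios of 0.80 and 0.95 on array 1, 1.61 and 1.61 on array 2, 1.20 and 1.25 on array 3, and 1.80 and 1.65 on array 4. The gap between spots was therefore smaller than the gap between most arrays. The call was kept when any single array was left out, with limma adjusted p between 0.0139 and 0.0339.

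The log2 ratios of PIR1, the chromosomal neighbour of PIR3, were 0.09, 0.50, 0.32 and 0.685 on arrays 1 to 4. All lay above 0, and that of array 1 was close to it. The mean was 0.40 ± 0.25 (SD, n = 4), a 1.32-fold ratio with a limma 95% interval of 0.05 to 0.75. It did not pass across all genes (limma adjusted p = 0.119, unadjusted p = 0.0336). Its 2 spots differed by between 0.02 and 0.11 on an array.

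CIS3, whose product also links to glucan through the PIR repeat, was measured at log2 ratios of 0.01, 0.73, 0.37 and 0.96 on arrays 1 to 4. Array 1 lay almost at 0, and array 4 reached a 1.95-fold ratio. The mean was 0.52 ± 0.42 (SD, n = 4), or 1.43-fold, with a limma 95% interval of 0.04 to 1.00, and it did not pass (limma adjusted p = 0.121, unadjusted p = 0.0378). The spots of CIS3 differed by at most 0.045, so little of this spread lay within an array.

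The fit called 1 of the 3 PIR genes higher and 0 lower, against a background of 17.0% of the 348 tested genes higher and 3.74% lower. At an unadjusted limma p under 0.05 all 3 were higher and 0 lower, where 24.7% of tested genes were higher and 7.76% lower. All 3 also had a value above 0 on each of the 4 arrays, as had 27.7% of the 328 genes with 4 values. The median mean log2 ratio of the 348 tested genes was 0.02, and their middle range ran from -0.21 to 0.46. PIR1 lay inside that range, CIS3 just above its upper end and PIR3 far above it.

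**Figure D1:**
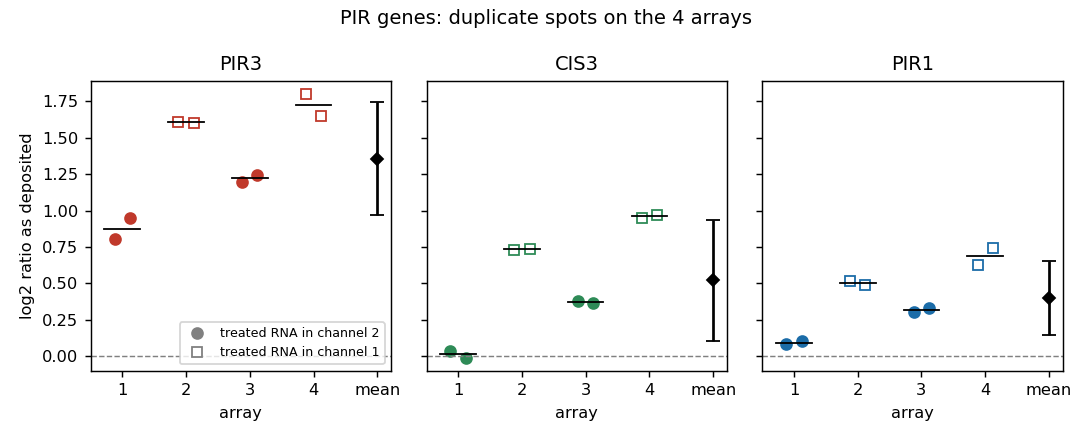
Deposited log2 ratio (vertical axis) of the duplicate spots of PIR3, CIS3 and PIR1 on arrays 1 to 4 (horizontal axis); filled circles are arrays with the treated RNA in channel 2, open squares those with it in channel 1, short lines the mean of the spots, and the diamond the mean over 4 arrays with its SD. In each gene array 1 is lowest, followed by array 3, array 2 and array 4, and PIR3 lies above the other genes on every array.

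**Figure D2:**
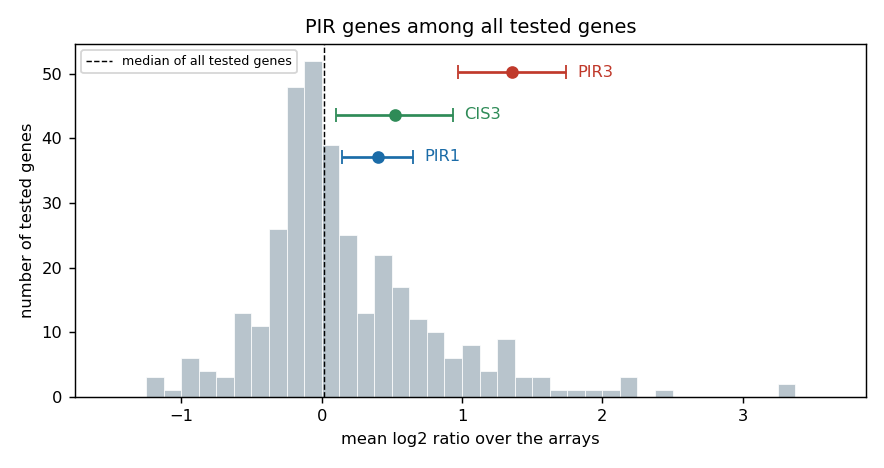
Number of tested genes (vertical axis) by mean log2 ratio over the arrays (horizontal axis, bars), with the mean and SD over 4 arrays of PIR3, CIS3 and PIR1 drawn above. PIR3, at 1.36, lies in the upper tail, while PIR1, at 0.40, and CIS3, at 0.52, lie near the upper end of the central mass of genes.

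The PIR genes were next set against each other within each array, which removes whatever shifts all 3 on an array. PIR3 exceeded PIR1 by 0.78, 1.11, 0.91 and 1.04 in log2 ratio on arrays 1 to 4. The mean log2 ratios were 1.36 for PIR3 and 0.40 for PIR1, a difference of 0.96 ± 0.14 (SD, n = 4), so the response ratio of PIR3 was 1.94-fold that of its neighbour. PIR3 exceeded CIS3 by 0.86, 0.87, 0.85 and 0.765, with a mean of 0.84 ± 0.050 (SD, n = 4), or 1.79-fold. The SD of this difference was far smaller than the SD of either gene over the arrays, 0.39 for PIR3 and 0.42 for CIS3. CIS3 and PIR1 lay closer. The differences of CIS3 from PIR1 were -0.08, 0.23, 0.06 and 0.275, with a mean of 0.12 ± 0.16 (SD, n = 4), so their order was not the same on every array. Without array 4 that mean was 0.070, without array 2 0.084 and without array 1 0.19.

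An exact permutation test that flips the signs of the 4 differences has 16 sign patterns, and its smallest two-sided p is 2 in 16, or 0.13. For the 3 pairs of genes, that smallest p was reached by PIR3 minus PIR1 and by PIR3 minus CIS3, with the difference positive on 4 of 4 arrays in both (adjusted over the 3 pairs, 0.1875). CIS3 minus PIR1 was positive on 3 of 4 arrays (exact p = 0.375, adjusted 0.375). A limma fit on the differences of every gene from a PIR gene, chosen after seeing the data, shares its estimate of spread across 347 genes. There PIR3 differed from PIR1 whichever was subtracted from all genes (limma adjusted p = 0.0129 with PIR1 subtracted and 0.00429 with PIR3 subtracted). For PIR3 and CIS3 the adjusted p depended on that choice (limma adjusted p = 0.0619 with CIS3 subtracted and 0.00594 with PIR3 subtracted). The unadjusted limma p of that pair was similar, 0.00368 and 0.00298. For PIR3 and PIR1 it was 0.00056 with PIR1 subtracted and 0.0018 with PIR3 subtracted. The adjusted p also depends on how many other genes differ from the subtracted gene, so it does not measure a pair alone. CIS3 and PIR1 did not pass either way (limma adjusted p = 0.472 and 0.642). The PIR genes resemble each other in sequence, and the specificity of their probes was not analysed here.

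The 3 PIR genes varied over the arrays in the same order, with array 1 lowest and then arrays 3, 2 and 4. Of the 328 genes with 4 values, 12.5% had that order. The arrays fall into pairs by channel order, and the ratios of arrays 1 and 3 did not overlap with those of arrays 2 and 4 in any of the PIR genes. For PIR3 the mean log2 ratio was 1.05 on arrays 1 and 3 and 1.67 on arrays 2 and 4, or 2.07-fold and 3.17-fold. For CIS3 it was 0.19 on arrays 1 and 3 and 0.85 on arrays 2 and 4. For PIR1 it was 0.20 on arrays 1 and 3 and 0.59 on arrays 2 and 4. Over the 328 genes with 4 values, 18.0% had both arrays 2 and 4 above both arrays 1 and 3.

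A limma model with a coefficient for channel order estimated this gap, with a positive value meaning higher on arrays 1 and 3. The coefficient is the distance of each pair of arrays from their common mean. It was -0.31 for PIR3, -0.33 for CIS3 and -0.19 for PIR1, and none passed (limma adjusted p = 0.169, 0.160 and 0.332), while it passed in 6.61% of tested genes. With the arrays centred on their medians it passed in all 3 (adjusted p between 0.0430 and 0.0451) and in 13.8% of tested genes. Median log2 ratios of all spots were 0.01, -0.13, 0.22 and 0.07 on arrays 1 to 4, so centring lowers array 3 and raises array 2.

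With the channel order term the treatment estimate is unchanged and its spread smaller. All 3 PIR genes were then higher, PIR3 with limma adjusted p = 0.000724, CIS3 with 0.0222 and PIR1 with 0.0402. In that model 25.0% of tested genes were higher and 9.77% lower. Within channel orders, PIR3 passed on arrays 1 and 3 alone and on arrays 2 and 4 alone (limma adjusted p = 0.00477 and 0.00137). CIS3 passed on arrays 2 and 4 alone (limma adjusted p = 0.0171) but not on arrays 1 and 3 alone (0.773), and PIR1 passed on neither (0.758 on arrays 1 and 3, 0.0548 on arrays 2 and 4). Each such fit has 2 arrays, and on them 19.4% and 17.9% of tested genes were higher. What part channel order has in the PIR ratios was not tested beyond these values.

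**Figure D3:**
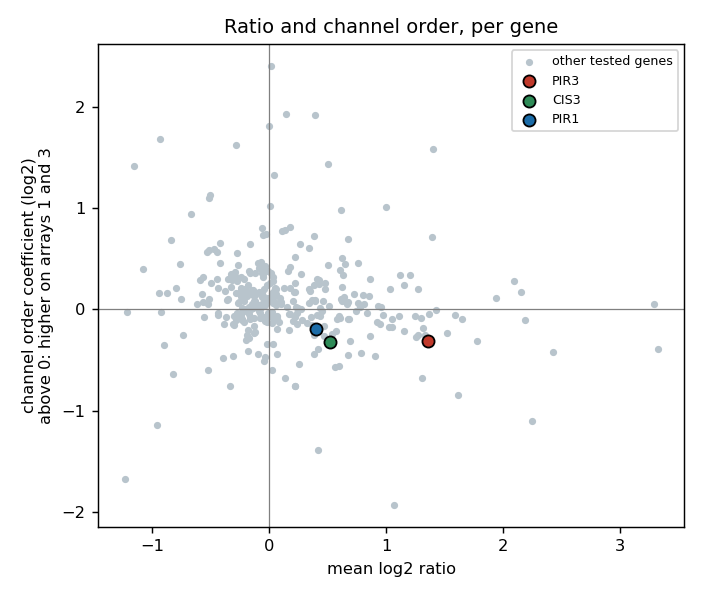
Channel order coefficient (vertical axis, log2; above 0 means higher on arrays 1 and 3) against the mean log2 ratio (horizontal axis) for each tested gene, with PIR3, CIS3 and PIR1 coloured. The PIR genes lie to the right of 0 and below 0, with coefficients of -0.31, -0.33 and -0.19.

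If arrays 2 and 4 had instead to be turned in sign, the PIR genes would have no direction common to the 4 arrays. PIR3 would have a mean log2 ratio of -0.31 (limma adjusted p = 0.974), CIS3 of -0.33 (0.888) and PIR1 of -0.19 (0.967), and limma would call 0 genes in all.

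Genes whose ratios were most like those of a PIR gene were found by the root mean square (RMS) difference of log2 ratios over the 4 arrays, among 327 other genes with 4 values. The closest to PIR3 was RLM1 (YPL089C), the transcription factor gene of the integrity pathway, with an RMS difference of 0.10. On arrays 1 to 4 RLM1 was at 1.02, 1.57, 1.14 and 1.60 in log2 ratio. Next came NFG1 (0.12), a gene known as a negative regulator of filamentous growth, CRH1 (0.13), which encodes an enzyme that links chitin to glucan, and SED1 (0.20), an abundant GPI wall protein. These 4 genes all passed, at mean log2 ratios of 1.33 (RLM1), 1.25 (NFG1), 1.32 (CRH1) and 1.52 (SED1). They were picked for values close to those of PIR3, which passed, so their passing is no separate finding.

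The genes closest to CIS3 and PIR1 were partly shared. For CIS3 they were CWP2 (0.09), a GPI wall mannoprotein gene, YET1 (0.11), a gene of the endoplasmic reticulum, SCW10 (0.18), a soluble wall protein gene related to glucanases, and PRY2 (0.18), which encodes a secreted sterol-binding protein. For PIR1 they were SCW10 (0.09), SRL1 (0.11), a wall mannoprotein gene, YCL049C (0.13), a gene of little-known function, and CWP2 (0.14). CWP2 had log2 ratios of -0.03, 0.59, 0.45 and 0.875, and SCW10 of 0.16, 0.47, 0.45 and 0.79. Neither passed (limma adjusted p = 0.133 and 0.0839). PIR1 ranked 5 among the genes closest to CIS3, and CIS3 ranked 10 among those closest to PIR1, each with an RMS difference of 0.19. PIR3, despite its place beside PIR1, ranked 259 of 327 for PIR1, with an RMS difference of 0.97. Counted from PIR3, the same difference put PIR1 at rank 63. PIR3 ranked 192 for CIS3, and CIS3 ranked 51 for PIR3, with an RMS difference of 0.84. Such ranks depend on how many genes lie near the gene counted from. The genes on the outer sides of the PIR pair, MCD4 and YKL162C, were not among the tested genes, nor was FAR1, which follows CIS3.

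**Figure D4:**
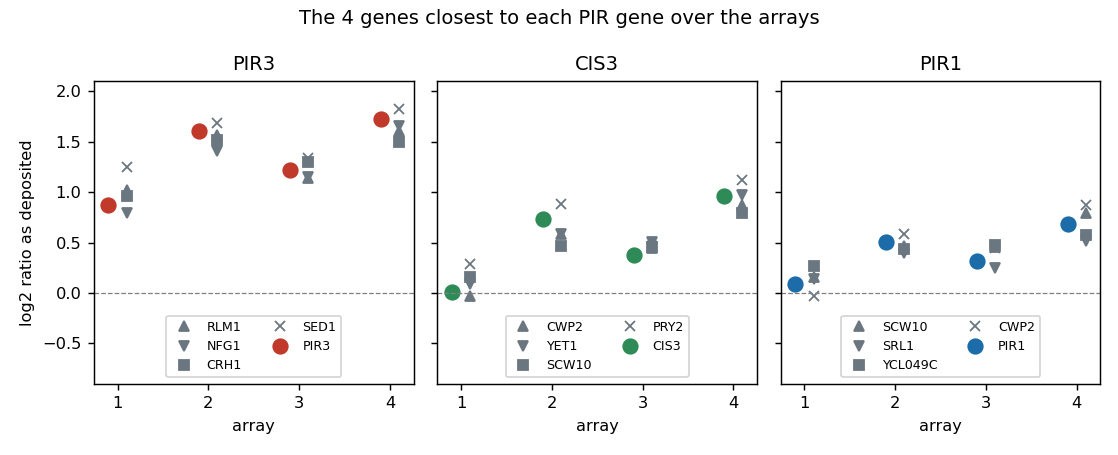
Deposited log2 ratio (vertical axis) on arrays 1 to 4 (horizontal axis) of PIR3, CIS3 and PIR1 (coloured circles) and of the 4 genes with the smallest root mean square difference from each (grey marks). The neighbours of PIR3 reach 1.82 on array 4, while those of CIS3 and PIR1 stay at or below 1.12 on every array.

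The PIR genes belong to the wall integrity response, a list of genes known to be induced through Slt2 and Rlm1. Of its 27 tested genes, the PIR genes included, 21 rose and 0 fell, with a median log2 ratio of 1.27, against 17.0% of all tested genes higher, 3.74% lower and a median of 0.02. The list was written with results of these data known, so its direction is no independent evidence. Without the PIR genes 20 of 24 rose. The largest ratios were those of CWP1, a GPI wall mannoprotein gene (log2 3.32 ± 0.49), CRG1, a methyltransferase gene (3.29 ± 0.08), YPS3, a yapsin protease gene (2.43 ± 0.52), and PRM5, a membrane protein gene (2.19 ± 0.23). The smallest ratios among those called were those of SWI4, a cell cycle transcription factor gene (0.52 ± 0.06), and PRY2 (0.69 ± 0.38, limma adjusted p = 0.04996). Both calls were lost without array 1, 2, 3 or 4 (limma adjusted p of 0.0656 to 0.0951 for SWI4 and 0.0617 to 0.142 for PRY2). PIR3 lay close to the middle of the list. PIR1 and CIS3 were among its 6 members that did not pass, with CCW14, CHS3, PTP2 and DCW1, chosen after their values were seen. CIS3 had nearly the mean ratio of SWI4, which passed, but an SD over the arrays of 0.42 where SWI4 had 0.06. SLT2 itself rose 3.01-fold (1.59 ± 0.12).

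PIR proteins share the wall with mannoproteins held by a GPI remnant. Of 27 tested genes of that class 6 rose, 3 fell and 18 did not pass, with a median log2 ratio of 0.18. The share that rose was near the 17.0% of all tested genes. The share that fell, 3 of 27, was above the 3.74% of all tested genes but rests on few genes. Leaving out 1 array moved the median to 0.27 without array 1, 0.34 without array 2, 0.27 without array 3 and 0.28 without array 4. Without array 2, 3 or 4 it covers 26 genes, because a gene with no value on array 1 dropped out. Over the 26 genes with 4 values the median was 0.23 on all arrays. The largest were CWP1, PST1 (log2 1.64 ± 0.23), SED1 and NCW2 (1.37 ± 0.14), the last of these at nearly the ratio of PIR3, and the lowest called were FIT2 (-1.21 ± 0.27), a gene of iron uptake, and TIR3 (-0.89 ± 0.44), a gene of the cold-shock mannoprotein family. The call of TIR3 was lost without array 1, 3 or 4 (limma adjusted p of 0.0656, 0.114 and 0.0563), and 1 lower gene was left in each case. In 10 of the 26 members with 4 values, both arrays 2 and 4 exceeded both arrays 1 and 3, as in the PIR genes. This was so in 9 of the 22 such members of the integrity response list other than PIR genes, and in 18.0% of all genes with 4 values. No test of these counts was made. CWP1, SED1 and CCW14 are counted in both lists, and CWP1 had 2.69, 3.80, 3.17 and 3.615 on arrays 1 to 4. PST1, NCW2 and SPI1 also stand in both, and all of them rose. GSC2, FKS1, BGL2, KTR2 and YPS3 of the lists below belong to the integrity response list too, so the lists are not separate.

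Of 9 tested genes for β-1,3-glucan synthesis, the polymer to which PIR proteins are linked, 3 rose and 0 fell, where 17.0% of all tested genes rose and 3.74% fell. The median log2 ratio was 0.47, and 0.27 without array 3. On arrays 2 and 4 alone it was 0.21, with 2 higher and 2 lower genes. In that fit 17.9% of 336 tested genes were higher, and 39 genes were lower. The 3 genes that rose over the 4 arrays included GSC2 (1.78 ± 0.46) and FKS1 (1.03 ± 0.28), which encode alternative catalytic subunits of glucan synthase. The other was GAS2 (0.67 ± 0.28), which encodes a glucan elongase. The call of GAS2 was lost without array 1, 3 or 4 (limma adjusted p of 0.0867, 0.117 and 0.111). Wall glucanases and related wall proteins were represented by 6 tested genes, and EXG2 (0.97 ± 0.11), BGL2 (0.80 ± 0.24) and EXG1 (0.61 ± 0.24), all glucanase genes, rose. The list was written for soluble wall proteins, but the EXG2 product is known to carry a signal for a GPI anchor. The median of that list was 0.54, close to the mean of CIS3, and 0 fell. EXG1 and BGL2 lost their calls without array 1, 3 or 4 (limma adjusted p of 0.0865, 0.114 and 0.112 for EXG1 and of 0.0572, 0.0522 and 0.0533 for BGL2), which left EXG2 as the single higher gene of the 6.

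Few genes of mannosylation and secretory processing were on the chip. Of 3 tested genes in a list written for protein O-mannosylation, 1 rose and 0 fell, against 17.0% and 3.74% of all tested genes. The gene that rose was KTR2 (2.15 ± 0.27), whose product is a mannosyltransferase known from N-linked rather than O-linked chains. KRE2, an O-mannosylation gene chosen after its value was seen, was at -0.24 ± 0.26 and did not pass. The median of the 3 genes was -0.16, but 0.20 without array 2, -0.34 without array 3, -0.26 without array 1 and -0.091 without array 4. Of 3 tested genes of secretory processing 2 rose and 0 fell, where 17.0% of all tested genes rose and 3.74% fell. They were the yapsin genes YPS3 and YPS1 (1.03 ± 0.26), the list's median was 1.03, and KEX2 was not among the tested genes. Genes of the M/G1 boundary, when PIR1 and PIR3 transcripts are known to peak, were represented by 3 of the 20 listed. None of DSE2 (0.06 ± 0.24), EGT2 (-0.13 ± 0.28) and SUN4 (-0.21 ± 0.18), genes of daughter cell separation, passed in limma. At an unadjusted limma p under 0.05 it was 0 of the 3, where 24.7% of all tested genes were higher and 7.76% lower. So few genes say little about the M/G1 class. The median of the 3 was -0.13 and ran from -0.21 without array 2 to -0.027 without array 1, with 0.10 on arrays 2 and 4 alone. The transcription factor gene SWI5 was not among the tested genes. ACT1, the actin gene, was at 0.06 ± 0.13 and did not pass.

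**Figure D5:**
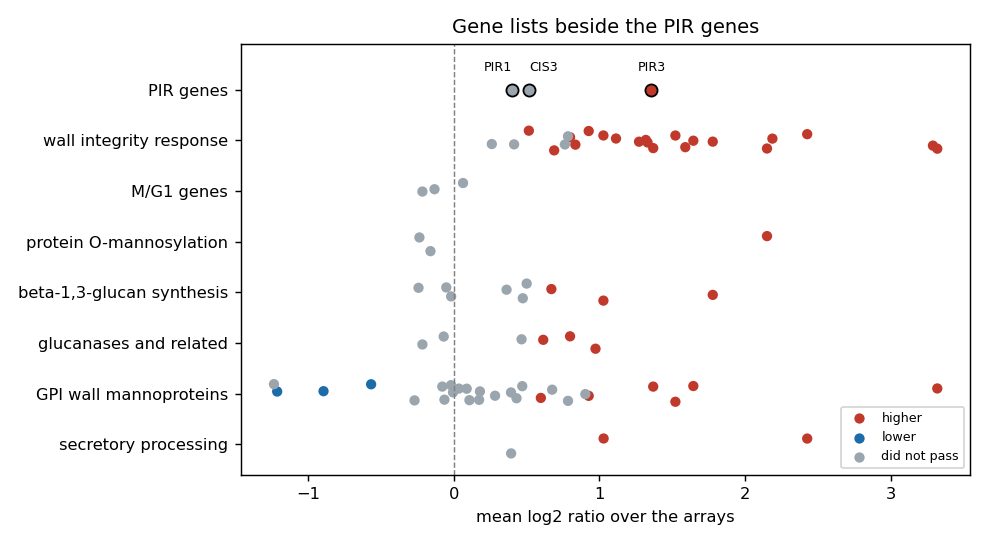
Mean log2 ratio over the arrays (horizontal axis) of the PIR genes (top row, outlined) and of the other tested genes of each list (rows below), coloured by whether the gene was higher, lower or did not pass at a limma adjusted p under 0.05. PIR3 lies near the middle of the integrity response genes, and PIR1 and CIS3 lie at its lower end.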

How the data were processed

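The authors deposited, for every spot, a log2 ratio between both channels of its array. The sources used here name no scanner, background method, normalization or spot filter, nor the numerator. The base follows from values that equal (within 0.00011) the logarithm of a ratio of whole numbers up to 10, of which arrays 1, 2 and 3 hold 58, 57 and 36 for base 2 and at most 9 for base e or 10. Array 4, whose PIR spots are given with fewer decimals, was not checked in this way and was taken to share that base. The SD over its spots was 0.95, near those of arrays 1, 2 and 3 (0.95, 0.95 and 0.96). Signal intensities were not analysed here. Of 896 spots, 724 have a single gene name in the platform's annotation, 10 several and 162 none. All 353 genes matched the R64 gene table, used for names and gene order only. Spots of a gene were averaged on each array, and the 348 genes with values on at least 3 arrays were tested for a mean other than 0 by lmFit and eBayes of limma 3.58.1 (R 4.3.3). P-values were adjusted after Benjamini and Hochberg, with a threshold of 0.05. The fit was tested on simulated data. Pairs of PIR genes were compared by exact sign-flip permutation.

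The members, lists and tests were chosen with earlier results of these data known. Named genes were the PIR genes and their chromosomal neighbours, the 4 genes closest to each PIR gene, the called genes of each list (where over 6, the 4 largest and 2 smallest ratios), and SLT2, RLM1, SWI5, KEX2, CWP1 and ACT1; a further gene of that rule is not reported here. Alternatives were centring, scaling, turning, a channel order term, limits on missing values, robust variance, array weights, single spots, averaged array pairs and each array left out. Fits within a channel order, the channel order term on centred arrays, and limma on differences were added after seeing the data. Repeats and promoter motifs of PIR genes were not analysed here. Figures used matplotlib 3.10.9.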

Additional observations from a re-analysis of the deposited data

Results flagged for a closer look

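Of 27 results with values on all 4 arrays that were checked for an array far from the rest (single genes, differences between PIR genes and list medians), 1 stood out, and it was no PIR gene. SLT2, the kinase gene of the pathway that PIR genes answer to, was at 1.42 on array 1 in log2 ratio, apart from the other arrays, which lay between 1.64 and 1.66. Chance marks about 1 in 20 such groups.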

How the results depend on the processing

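The ratio of PIR3 stayed above 0 and past the threshold in 16 of 17 alternatives, all but the turning of arrays 2 and 4 (-0.31). PIR1 and CIS3 kept their sign in all but that turning (-0.19 and -0.33). They passed with a channel order term (0.40 and 0.52) and with that term on centred arrays (0.36 and 0.48), and CIS3 on arrays 2 and 4 alone (0.85). Without 1 array, the log2 ratios ran from 1.24 to 1.52 for PIR3, 0.30 to 0.50 for PIR1 and 0.37 to 0.69 for CIS3, with no call changed. The channel order coefficient passed with centred arrays (PIR3 -0.38, CIS3 -0.40, PIR1 -0.27) and, for CIS3, with centred and scaled arrays (-0.37). With arrays 2 and 4 turned, PIR3 minus PIR1 became -0.11, CIS3 minus PIR1 -0.13 and PIR3 minus CIS3 0.018. The limma fit on differences, which takes the same values (0.96 and 0.84), passed for PIR3 minus PIR1 either way and for PIR3 minus CIS3 with PIR3 subtracted.

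Over all genes, 59 were higher and 13 lower. Turning arrays 2 and 4 gave 0 and 0, with no gene past the threshold. Lower genes numbered 23 with centred arrays, 24 with centred and scaled arrays, 34 with the channel order term and 39 on arrays 2 and 4 alone. The term on centred arrays gave 97 higher and 81 lower, and single spots 109 and 26 spots. Without 1 array, higher genes numbered 33 to 46 and lower genes 3 to 6.

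With arrays 2 and 4 turned, list medians were -0.10 for the integrity response, 0.069 for β-1,3-glucan synthesis, 0.027 for glucanases and related wall proteins, -0.095 for GPI mannoproteins and 0.095 for secretory processing. The O-mannosylation median was 0.49 on arrays 1 and 3 alone, -0.42 on arrays 2 and 4 alone, and ran from -0.34 to 0.20 without 1 array. The GPI mannoprotein median was 0.38 on arrays 2 and 4 alone and ran from 0.27 to 0.34 without 1 array. Leaving that turning aside, the integrity response list had at least 17 higher genes and 0 lower ones in every alternative. Higher genes then numbered 2 to 6 for β-1,3-glucan synthesis, 1 to 4 for glucanases and related wall proteins and 5 to 12 for GPI mannoproteins. Lower genes reached at most 2, 1 and 4 in these lists. The counts of 6 and 12 came with the channel order term on centred arrays, where 97 of 348 tested genes were higher and 81 lower. The 17 of the integrity response list came without array 1 and without array 3, where 39 and 33 genes were higher. The cause of these changes was not tested. Each ratio already sets treated against untreated RNA on the same array. No further pairing between groups was possible, since all arrays form a single group. Spots near the background could not be set apart, since no intensities were analysed here.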
